A study of Mus musculus with 26 samples.

Results

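Sperm DNA methylation was measured at 10 genes that maintain spermatogonial stem cells (SSCs) or move them into differentiation: Gfra1, Ret, Id4, Etv5, Bcl6b, Zbtb16, Nanos2, Nanos3, Kit and Kitl. They are 10 of the 38951 RefSeq mouse genes with at least 1 cytosine position of 10 or more reads inside the gene or within 2000 bp of it. They were chosen for their known roles and not for their methylation, although earlier results of these data were known by then. Between them they held 1936 of 2626470 such positions, from 16 in Nanos2 and in Nanos3 to 455 in Zbtb16.

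Reduced-representation bisulfite sequencing (RRBS) cuts DNA at CCGG sites, so that CpG-dense DNA is read preferentially, and converts unmethylated cytosines so that the methylated share of the reads can be counted. The libraries came from purified cauda epididymal sperm of 26 male mice in 6 groups, all labelled strain DBA/2J. The 3 SSCT F0 mice were sterile W/W-v males, mutant in Kit, that had received cultured neonatal DBA/2J SSCs, so that the sperm was of donor origin. The 3 control F0 mice were DBA/2J, and both F0 groups were sampled at 16 to 18 months. Control F1, SSCT F1 and the SSCT F2 groups from the maternal line (SSCT F2/M) and the paternal line (SSCT F2/P) had 5 mice each, sampled at 3 months. Age and generation therefore cannot be told apart between F0 and offspring, and the SSCT F0 group also differed from its control in the host.

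Groups are those of the sample titles. The study's own display names the same sets of 5 offspring differently, with the set titled SSCT F2/M as its control F1. A treatment label marks the sets titled control F1 and SSCT F2/M alike as wild type. The paper's CpG totals for its separate offspring groups come closest to pairs that hold the set titled SSCT F2/M. Here that set gave 609376 CpGs tested with the set titled SSCT F1, 664292 with control F1 and 714746 with SSCT F2/P. The pair titled SSCT F1 and control F1 had 597327, and none of those totals was closest to it. By these counts, the comparisons with control F1 below are not the paper's control comparisons, apart from the pair with SSCT F2/M. The sets themselves stay the same under either naming, so counts and tests of the members are given for all 6 pairs of offspring sets, while the pathway counts and the plot of differences use the set titled control F1.

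The members act in one sequence. Glial cell line-derived neurotrophic factor (GDNF) from Sertoli cells binds GFRA1, which signals through the receptor tyrosine kinase RET, and the transcription regulators ETV5, BCL6B and ID4 act downstream in self-renewal. ZBTB16 (PLZF) and the RNA-binding proteins NANOS2 and NANOS3 hold undifferentiated spermatogonia in that state, while the receptor KIT and its ligand KITL, from Sertoli cells, drive differentiation. In sperm most CpGs outside CpG islands are methylated and most CpG island promoters are not, whether or not the gene was active earlier in the lineage.

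The members' promoters differed in how much there was for RRBS to read. The 250 bases before the annotated start are printed for 5 of them from the RefSeq promoter table (GRCm38.p6), 5′ to 3′ on the gene's own strand. Capitals mark each CpG that had at least 10 reads in any of the 20 offspring libraries, so a marked CpG need not be read in most of them. The sequences show the CpG-richest promoter of the set (Id4), those of the receptors Kit and Gfra1, and the NANOS promoters, in which nothing was measured.
Id4, chr13:48260866-48261115, plus strand: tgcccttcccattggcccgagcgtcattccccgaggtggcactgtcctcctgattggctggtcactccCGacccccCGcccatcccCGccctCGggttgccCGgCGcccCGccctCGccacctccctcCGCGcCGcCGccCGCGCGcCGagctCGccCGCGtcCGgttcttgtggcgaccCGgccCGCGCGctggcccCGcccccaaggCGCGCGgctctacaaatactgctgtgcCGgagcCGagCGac
Kit, chr5:75574737-75574986, plus strand: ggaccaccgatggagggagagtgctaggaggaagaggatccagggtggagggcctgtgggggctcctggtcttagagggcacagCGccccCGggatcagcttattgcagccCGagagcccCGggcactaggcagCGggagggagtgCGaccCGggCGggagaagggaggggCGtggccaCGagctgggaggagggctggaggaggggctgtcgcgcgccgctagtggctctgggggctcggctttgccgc
Gfra1, chr19:58455399-58455648, minus strand: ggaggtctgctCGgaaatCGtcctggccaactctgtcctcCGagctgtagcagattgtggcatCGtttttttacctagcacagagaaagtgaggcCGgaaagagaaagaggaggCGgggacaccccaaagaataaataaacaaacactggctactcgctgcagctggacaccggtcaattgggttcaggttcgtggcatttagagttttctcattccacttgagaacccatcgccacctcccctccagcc
Nanos2, chr7:18987274-18987523, plus strand: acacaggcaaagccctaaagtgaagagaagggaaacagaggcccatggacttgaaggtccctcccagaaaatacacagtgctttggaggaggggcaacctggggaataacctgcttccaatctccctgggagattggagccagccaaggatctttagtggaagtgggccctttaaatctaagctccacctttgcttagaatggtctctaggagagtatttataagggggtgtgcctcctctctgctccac
Nanos3, chr8:84176553-84176802, minus strand: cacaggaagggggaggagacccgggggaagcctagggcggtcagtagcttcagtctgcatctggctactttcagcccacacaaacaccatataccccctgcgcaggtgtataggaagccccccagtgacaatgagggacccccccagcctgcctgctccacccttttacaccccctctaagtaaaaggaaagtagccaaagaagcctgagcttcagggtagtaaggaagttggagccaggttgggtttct
The Id4 promoter held 35 CpGs, of which 31 were measured, and 2.98% of the 32817 promoters in the table held as many. The Kit promoter held 17 CpGs with 10 measured, and the Gfra1 promoter 10 with 6 measured. The Nanos2 promoter held no CpG and the Nanos3 promoter 3, none of them measured, and the median over all promoters was 6. The CCGG motif (its own reverse complement) stood 4 times in the Id4 window, 3 times in Kit, 2 times in Gfra1, 1 time in Nanos3 and not at all in Nanos2, and 47.0% of all windows of the same length held it. Over the measured positions of these windows the mean methylation level in the offspring was 1.30% in Id4, 1.66% in Kit and 0.707% in Gfra1. Kitl, with 23 CpGs of which 22 were measured, had a mean of 1.30%. No promoter entry was at hand for Ret, Bcl6b or Zbtb16.

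Taken over whole genes, the members had very different mean levels. Each level is the unweighted mean over the positions of a gene with at least 10 reads in that library, over the 20 offspring. The level was 95.5% ± 4.50 (SD, n = 20) for Nanos3, 61.0% ± 5.07 for Kit, 57.4% ± 2.71 for Gfra1, 51.2% ± 2.35 for Zbtb16 and 43.7% ± 10.2 for Nanos2. It was 28.2% ± 4.38 for Ret, 26.1% ± 2.35 for Etv5, 12.2% ± 2.00 for Kitl, 11.02% ± 2.24 for Bcl6b and 2.05% ± 0.565 for Id4. Neighbours in this order overlapped between mice, except that every mouse had more in Nanos3 than any mouse in Kit, more in Etv5 than any in Kitl, and more in Bcl6b than any in Id4. Each gene was read at its own positions, so this order describes the measured parts of the genes.

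**Figure D1:**
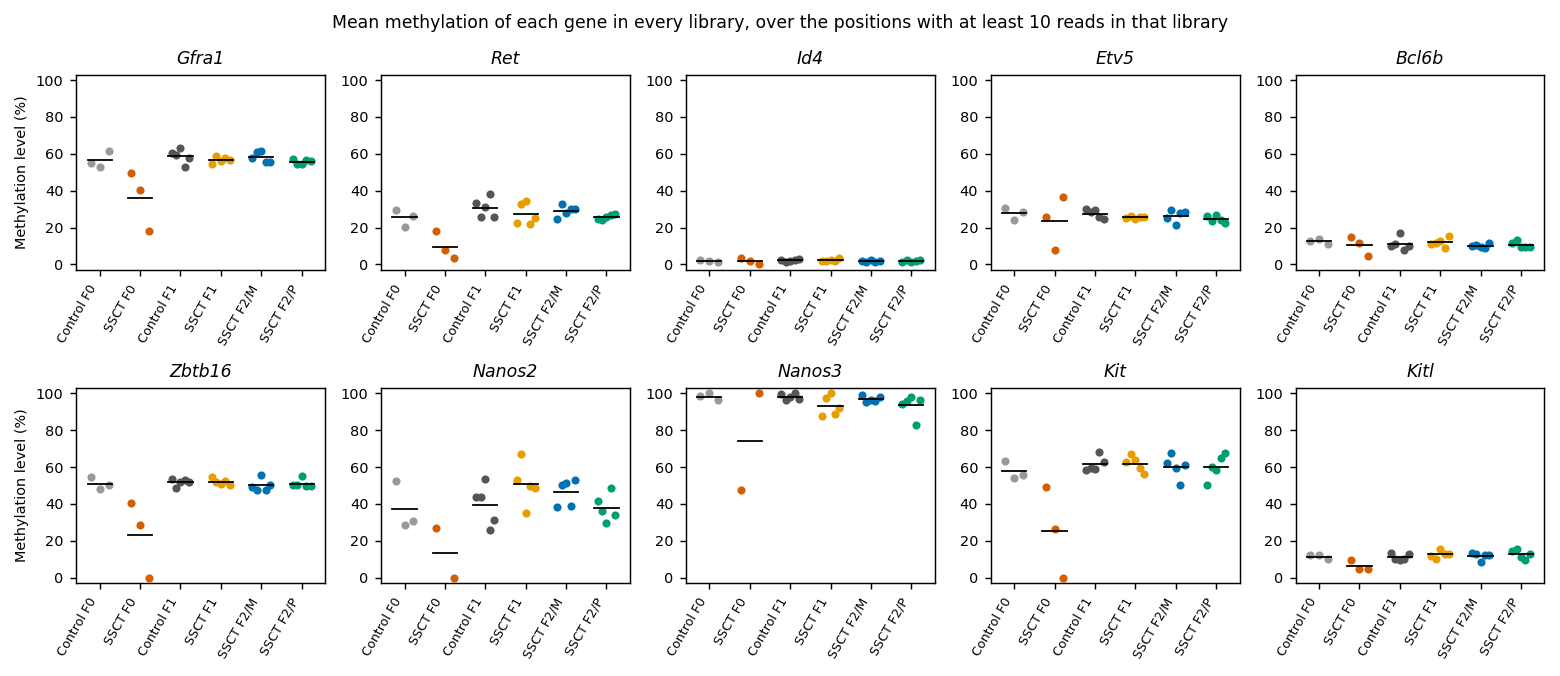
Mean methylation level (%) of each gene in every library, over the positions with at least 10 reads in that library, by group. Points are libraries and bars are group means, and the offspring groups overlap within each gene while the SSCT F0 libraries of Gfra1, Ret, Zbtb16 and Kit lie below the control F0 libraries.

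The level depended on the part of the gene. Within 1000 bp of the annotated start the offspring mean was 1.40% over 60 positions in Gfra1, 1.16% over 154 in Id4, 1.45% over 69 in Etv5, 1.43% over 39 in Kit and 1.87% over 97 in Kitl, and none of these positions reached 20%. Ret, Bcl6b and Zbtb16 have no strand in the tables at hand, and for them the unmethylated stretch lay at the end of the gene with the higher coordinate, with means of 1.75% over 118 positions, 1.74% over 38 and 1.56% over 118. So 8 of the 10 members had an unmethylated gene end in sperm, at the annotated start in Gfra1, Id4, Etv5, Kit and Kitl. In Ret, Bcl6b and Zbtb16 that end was picked by its low level, so it cannot be set beside the starts of other genes. The lower ends of Ret and Zbtb16 had 0 positions within 1000 bp. Of 16116 genes with at least 2 positions near the start, 82.9% had a mean under 20% there and 12.2% a mean above 80%, with a median of 1.8%.

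Nanos2 and Nanos3 were among the few methylated starts, on little data. In Nanos2, 2 positions lay within 1000 bp of the start, at +156 bp with 64.0% ± 45.2 (n = 15 libraries) and at +387 bp with 99.7% ± 1.09 (n = 10). In Nanos3 they lay at +390 bp with 91.0% ± 10.8 (n = 19) and at +418 bp with 89.4% ± 13.4 (n = 18). Neither gene had a position that was measured in all 20 offspring, so no gene-level model could be fitted to them.

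**Figure D2:**
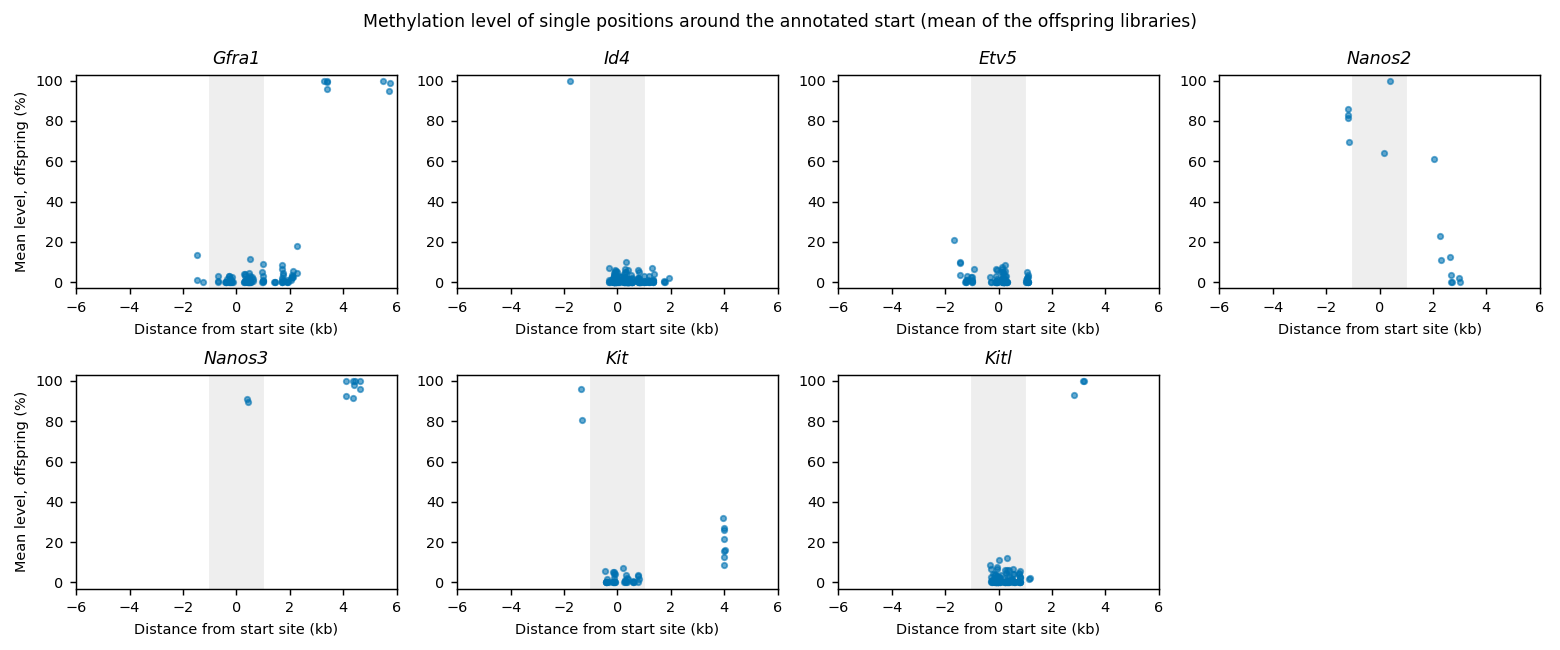
Mean methylation level (%) of single positions over the offspring libraries against distance (kb) from the annotated start, for the 7 members with a known strand, with the shaded band marking 1 kb on either side. Starts of Gfra1, Id4, Etv5, Kit and Kitl lie near 0, and the 2 positions in the bands of Nanos2 and of Nanos3 lie above 60%.

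Away from the starts the gene bodies were methylated. More than 5000 bp from the start the mean was 92.1% over 129 positions in Gfra1, 87.9% over 37 in Etv5 and 97.7% over 80 in Kit. More than 1000 bp from both gene ends it was 97.7% over 38 positions in Ret and 85.1% over 169 in Zbtb16. Kitl differed, with 37.4% over 24 positions beyond 5000 bp, of which 14 were under 20% and 7 above 80%. Bcl6b had 5 positions near its lower end at 98.4%, but the 32 positions between its ends averaged 8.17%.

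Intermediate levels were rare in these genes. Of the 1331 member positions read in at least 10 offspring libraries, 64.2% were under 20%, 33.9% above 80% and 26 positions, or 1.95%, in between, against 62.6%, 31.2% and 6.23% of all 1722906 positions. The median SD between mice was 3.35 percentage points at member positions and 4.33 at all positions. In Kit, the receptor disrupted in the W hosts, 8 positions between 3952 and 4013 bp after the start formed one block. Their means ran from 8.66% to 31.9%, with SDs up to 27.0 percentage points, and 4 of them were of intermediate level. Another intermediate Kit position lay 23684 bp after the start, at 73.8%. In Bcl6b, 5 intermediate positions lay between 4315 and 4620 bp from its lower end, with means of 20.5% to 42.2%. Gfra1 had 5 scattered over its body, Nanos2 4, Zbtb16 and Kitl 3 each and Etv5 1.

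The first question of the design was whether offspring of transplanted males differ from control offspring. Over positions shared by all 20 offspring (390 in the members, of 460464) group means of a gene differed by at most 1.15 percentage points in any of the 6 pairs. The pair with that difference was Kit, at 60.6% ± 0.961 (SD, n = 5) in SSCT F2/M and 59.4% ± 0.482 in control F1 over 25 positions. The 5 SSCT F2/M mice had 60.8, 61.5, 61.3, 59.4 and 59.7% and the 5 control F1 mice 59.8, 59.8, 59.7, 58.8 and 58.9%. In SSCT F2/M, 3 mice lay above every control and 2 within the control range, with a 95% interval of the difference from -0.213 to 2.51 (adjusted p = 0.997, limma over all genes) and an exact permutation p of 0.0714, two-sided.

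Gfra1, the GDNF co-receptor, was the most even of the highly covered genes. Its mean over 78 positions was 58.3% ± 0.372 in control F1, 58.7% ± 0.464 in SSCT F1, 58.1% ± 0.269 in SSCT F2/M, with 58.3% ± 0.814 in SSCT F2/P. All 20 mice lay between 57.1% and 59.3%. The pair furthest apart was SSCT F1 and SSCT F2/M, by 0.566 percentage points (95% interval -0.496 to 1.63, exact permutation p = 0.0556, limma adjusted p = 0.964).

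Ret, its signalling partner, had 34.1% ± 1.57 in control F1, 33.8% ± 0.889 in SSCT F1, 33.7% ± 0.645 in SSCT F2/M, with 34.0% ± 0.842 in SSCT F2/P over 30 positions. The downstream regulators were as even. Id4 had 1.44% ± 1.05 in control F1 and 1.12% to 1.52% in the other 3 groups over 44 positions, Etv5 6.82% ± 0.610 and 6.67% to 7.06% over 55, and Bcl6b 14.2% ± 0.747 and 13.7% to 14.3% over 36. In each of these genes the group means differed by less than the SD of at least 1 of the groups.

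Zbtb16, a repressor that keeps spermatogonia undifferentiated, had 50.8% ± 0.323 in control F1, 51.4% ± 1.20 in SSCT F1, 51.2% ± 0.432 in SSCT F2/M, with 51.1% ± 0.712 in SSCT F2/P over 66 positions. The 3 other groups had higher means than control F1, by 0.667, 0.416 and 0.329 percentage points, and the intervals of all these differences included 0. Kitl, the ligand of KIT, had 9.19% ± 0.659 in control F1 and 8.52% ± 0.427 in SSCT F2/P over 56 positions, a difference of -0.665 percentage points (95% interval -1.61 to 0.283, exact permutation p = 0.103).

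Nanos2 and Nanos3 could be compared only over whichever positions each library held. Nanos3, over 4 to 10 positions a library, had 98.2% ± 1.53 in control F1, 93.1% ± 5.38 in SSCT F1, 97.0% ± 1.55 in SSCT F2/M, with 93.6% ± 6.22 in SSCT F2/P. The smallest of its 6 exact permutation p-values was 0.0635, for SSCT F2/P against control F1. Nanos2, over 7 to 15 positions, had 39.6% ± 11.1 in control F1, 50.7% ± 11.4 in SSCT F1, 46.4% ± 7.15 in SSCT F2/M, with 38.0% ± 7.25 in SSCT F2/P, and its smallest was 0.0635, for SSCT F1 against SSCT F2/P. These p-values are not adjusted for the 6 pairs, and the positions behind the means differed between libraries.

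No member passed limma, a moderated test across genes that uses the spread between mice, in any of the 6 pairs, and neither did any of the 19377 genes tested (0%). At an unadjusted p under 0.05 there were 1032 genes for SSCT F1, 890 for SSCT F2/M and 879 for SSCT F2/P against control F1, with 802 to 1013 in the other 3 pairs, and 0 of the 8 members tested in each of the 6. An F test over the 4 sets, which does not depend on their names, gave the members adjusted p-values of 0.993 to 0.994. The 95% intervals of the 24 member differences from control F1 ran from -2.07 (Bcl6b in SSCT F2/P) to 2.51 percentage points (Kit in SSCT F2/M), and those of the other 3 pairs from -2.29 to 2.15. The median absolute difference from control F1 was 0.262, 0.285 and 0.281 points in the members, beside 0.666, 0.631 and 0.628 over all genes. In the other 3 pairs it was 0.188 to 0.393 in the members and 0.626 to 0.655 over all genes. The members tested had 25 to 78 shared positions each, while every gene with at least 5 was counted. The number of positions was not matched, so these medians cannot show that the members varied less than other genes.

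**Figure D3:**
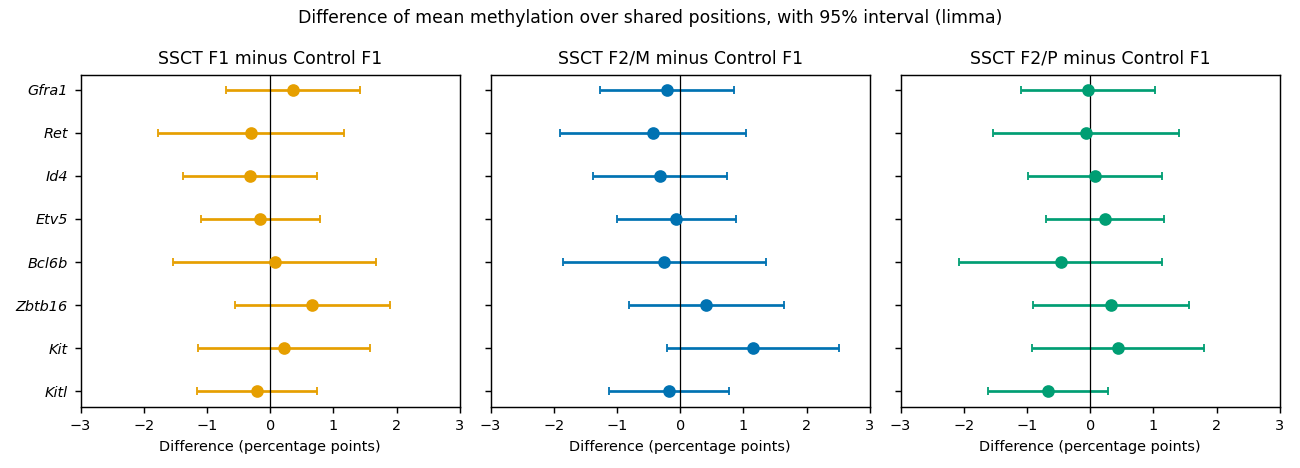
Difference of mean methylation from control F1 (percentage points) over shared positions for the 8 members with at least 5 of them, 1 panel for each of the other offspring groups. Points are differences and bars 95% intervals from limma, and every interval includes 0 and lies between -2.07 (Bcl6b in SSCT F2/P) and 2.51 (Kit in SSCT F2/M).

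The same held for the other genes of the pathway. Of 38 listed niche factors, receptors, regulators, differentiation factors and KIT signal transducers, 36 were tested in the offspring and 0 passed limma. Higher means than in control F1 were seen in 25 for SSCT F1, 20 for SSCT F2/M and 19 for SSCT F2/P, where 49.8, 49.9 and 48.5% of all genes tested were higher. An unadjusted p under 0.05 was given by 0, 1 and 2 of them.

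Single CpGs were also tested as the study tested them, with a logistic model of the reads, a q-value under 0.01 and group levels, weighted by reads, more than 25 percentage points apart. This test treats every read as independent and leaves out how far mice of 1 group differ. Against control F1, 1 of 501 member CpGs was called for SSCT F1 (0.2%, background 0.462% of all CpGs), 1 of 575 for SSCT F2/M (0.174%, background 0.42%) and 1 of 624 for SSCT F2/P (0.16%, background 0.43%). In windows of 1000 bp the counts were 1 of 91 (background 0.415%), 0 of 99 (0.363%) and 0 of 100 (0.392%). Between the other sets, 1 of 495 member CpGs was called for SSCT F1 against SSCT F2/M (background 0.439%), 1 of 533 for SSCT F1 against SSCT F2/P (0.447%) and 1 of 602 for SSCT F2/M against SSCT F2/P (0.404%). The windows of these 3 pairs gave 1 of 94 (0.369%), 0 of 92 (0.408%) and 0 of 94 (0.368%). None of these called CpGs had groups that did not overlap, and neither did most of those called over all CpGs, where 8.32 to 10.1% had such groups in the 6 pairs.

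The called offspring CpGs were 4 single positions, and at each of them mice of a compared group lay far apart. In Zbtb16, chr9:48675692 on the minus strand, inside the gene and 23895 bp from its nearer end, had 0, 75.9, 20, 92.9 and 100% in the SSCT F1 mice and 100% in all 5 control F1 mice. SSCT F1 thus ranged over the whole scale while control F1 did not vary, with 14 to 36 reads per mouse and an exact permutation p of 0.0476. The position had 89.6% ± 14.4 (n = 5) in SSCT F2/M and 100% in the 4 SSCT F2/P mice read there. It was also the CpG and the window called between SSCT F1 and SSCT F2/M (exact permutation p = 0.19).

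In Nanos2, chr7:18989841 on the minus strand, 2317 bp after the start and beyond the gene's end, had 0, 0, 0, 100 and 65.4% in SSCT F2/M, against 0, 0, 0, 44.4 and 0% in control F1. In these groups 2 SSCT F2/M mice and 1 control mouse carried all the methylation, and every SSCT F1 and SSCT F2/P mouse read there had 0% (exact permutation p = 0.444 against control F1 and against SSCT F2/P). In Zbtb16, chr9:48730123 on the plus strand had 0, 0, 0, 23.8 and 58.8% in SSCT F2/P and 66.7, 0, 0, 32.7 and 72.7% in control F1 (exact permutation p = 0.365), so that both groups held mice at 0 and mice above 50%. In Kitl, chr10:100094588 on the minus strand, 78767 bp after the start, had 100, 100, 100, 42.9 and 34.8% in SSCT F1 and 62.3, 0, 24.5, 35.9 and 24.1% in SSCT F2/P (exact permutation p = 0.0556). Only 2 control F1 mice had 10 or more reads there, with 0 and 4.44%, below every SSCT F1 mouse, so that no test against control F1 was made at this position, and the 3 SSCT F2/M mice read there had 15.4 to 73.8%. The Zbtb16 position at 48730123 and the Kitl position were among the 26 of intermediate level.

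**Figure D4:**
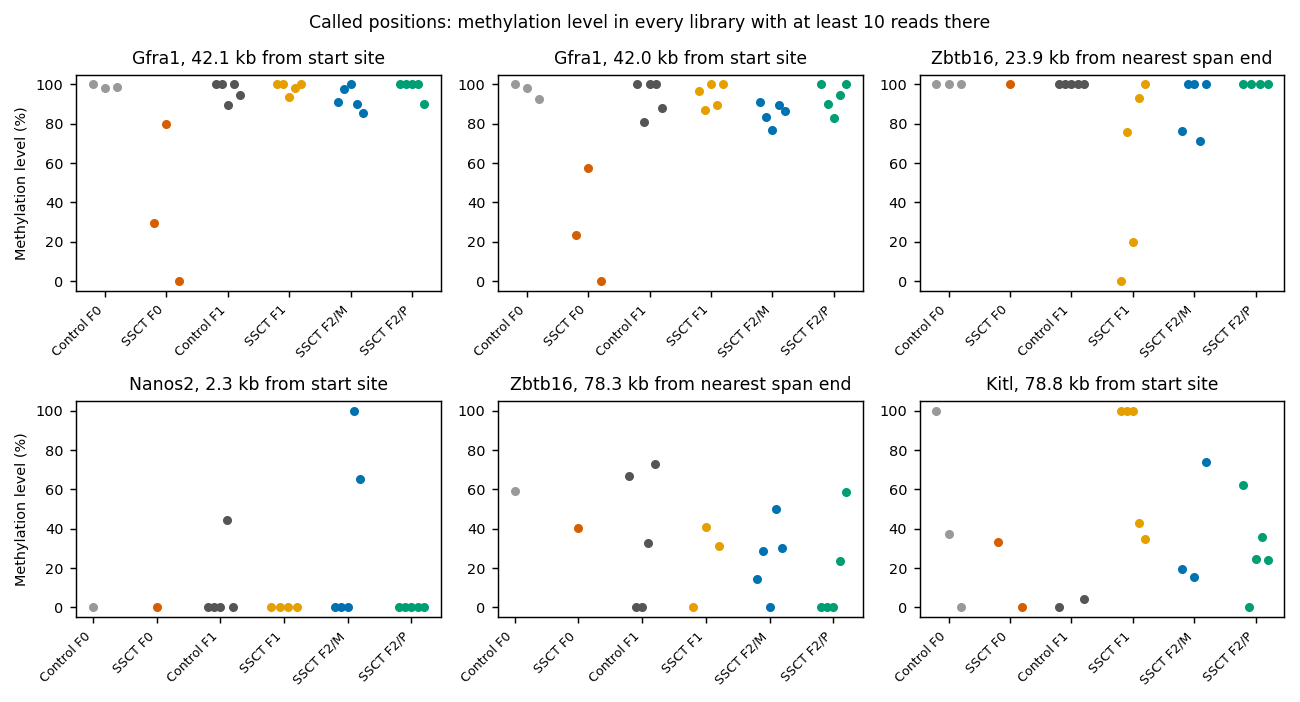
Methylation level (%) at each called member position in every library with at least 10 reads there, by group, 1 point per library. At the Gfra1 positions each SSCT F0 library lies below every other library, and at the 4 offspring positions mice of 1 group lie far apart, over the whole scale in SSCT F1 at the Zbtb16 position 48675692.

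The second question was whether sperm of the transplanted males differed from control F0. The number of positions read differed between the F0 groups. The offspring and control F0 libraries had 1995496 to 2232483 positions, with a median of 23 to 38 reads at positions of 10 or more. Their coverage summed over positions was 45616751 to 87707577, where a read counts once for each position it covers. The SSCT F0 libraries, for which the labels give a lower DNA input, had 1977100, 1123580 and 305964 positions, with medians of 26, 41 and 392 reads. Replicates 2 and 3 thus had fewer positions, each read more often, and 94.0% and 93.6% of the member positions they shared with the controls were listed at exactly 0 or 100, beside 85.1% in replicate 1 and 80.7 to 86.2% in the controls. These shares are over different positions, 787, 500 and 78 in replicates 1, 2 and 3 and 923 in each control. Control levels were under 20% at 577, 419 and 70 of those in replicates 1, 2 and 3.

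Over each library's own positions the SSCT F0 levels were lower than the controls in Gfra1, Kit, Zbtb16, Ret and Kitl, as they were in many other genes. Gfra1 had 49.3, 40.2 and 18.2% in the SSCT F0 mice, over 200, 104 and 11 positions, and 55.2, 52.9 and 61.7% in control F0. Kit had 49.2, 26.5 and 0% against 63.5, 54.3 and 55.7%, Zbtb16 40.5, 28.7 and 0% against 54.7, 48.0 and 50.3%, and Ret 18.1, 7.66 and 3.24% against 29.7, 20.5 and 26.4%. Every SSCT F0 mouse lay below every control in these genes and in Kitl (9.44, 4.97 and 4.76% against 12.1, 12.4 and 9.95%). These are 5 of the 8 members with a position in each F0 library, and 31.6% of 18496 genes had every SSCT F0 mouse below every control in the same way, with a median difference of -6.79 percentage points over those genes. Etv5, whose body was methylated too, had 25.5, 7.98 and 36.4% against 30.6, 24.0 and 28.4%, so that replicate 3 lay above every control. In Gfra1, Kit, Zbtb16 and Ret the mice with fewer positions had the lower levels.

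Over the same positions the differences were smaller in replicates 1 and 2. SSCT F0 replicate 1 differed from the control mean by -0.427 percentage points over 787 member positions, replicate 2 by -1.52 over 500 and replicate 3 by -5.37 over 78, while each control differed from the mean of the other controls by -0.367 to 0.39 over 923. Over all positions shared in the same way the 3 SSCT F0 libraries differed by 0.191, -1.27 and -2.97, and the controls by -0.600 to 0.484. Zbtb16 differed by -0.052 in replicate 1 (149 positions), -0.59 in replicate 2 (91) and -33.3 in replicate 3 (only 3 positions). Ret differed by 0.139 (102), 1.27 (60) and -1.18 (20). Gfra1 differed by -0.878 (121), -8.06 (57) and -21.4 (10), and Kit by -3.38 (53), -8.07 (32) and -5.38 (3). The controls of Kit differed among themselves by up to 3.62 points.

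**Figure D5:**
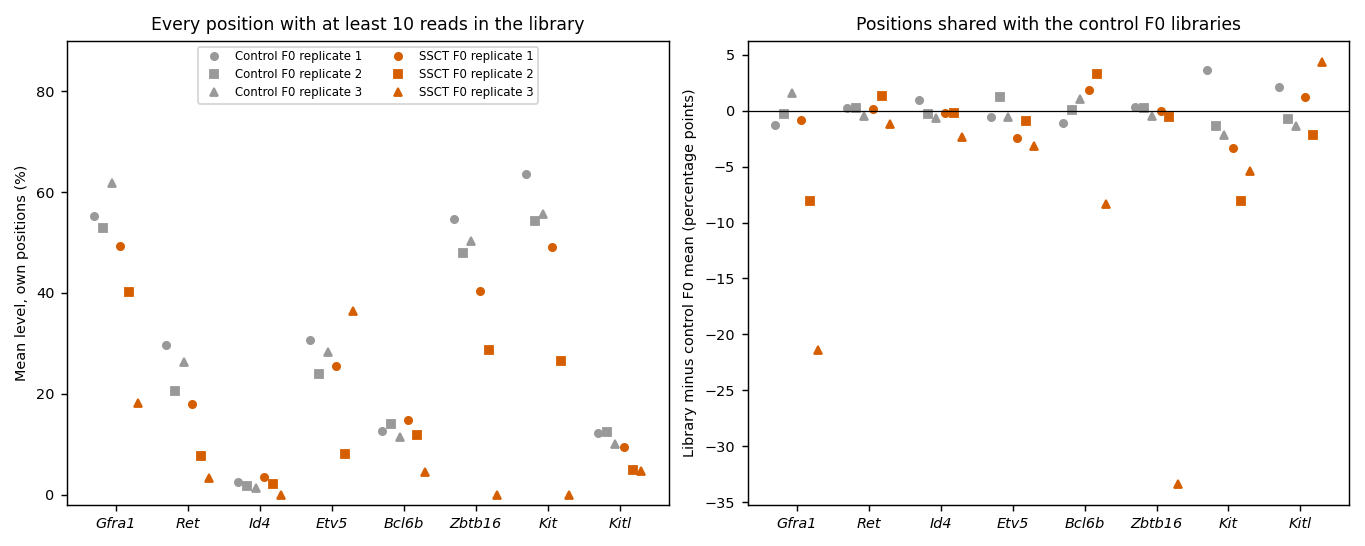
Left, mean methylation level (%) of 8 members in each F0 library over its own positions. Right, difference (percentage points) from the control F0 mean over positions shared with the control libraries (for a control, from the mean of the other controls). Zbtb16 and Ret lie near 0 in SSCT F0 replicates 1 and 2, while Gfra1 in replicates 2 and 3 and Zbtb16 in replicate 3 (3 positions) lie below.

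Only 60 member positions were shared by all 6 F0 libraries, and 5 members had at least 5 of them. None passed limma, as none of 8053 genes did (0%), with 511 genes at an unadjusted p under 0.05 and 0 members among them. The differences were -0.144 percentage points in Ret, -1.98 in Id4, -4.09 in Etv5, 2.66 in Bcl6b and 1.73 in Kitl. Their 95% intervals were wide, from -13.3 to 18.6 in Bcl6b. With 3 mice against 3 the exact permutation test cannot give a p below 0.1.

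Gfra1 was the member in which CpGs were called in F0. Of 58 member CpGs tested, 2 were called (3.45%, background 5.83%), and 1 of 13 windows (7.69%, background 10%), all in Gfra1 and all lower in SSCT F0. The CpGs chr19:58413326 and chr19:58413360 on the plus strand lie inside the gene, 42072 and 42038 bp after its start. The first had 29.4, 80.1 and 0% in SSCT F0 and 100, 98.2 and 98.8% in control F0. The second had 23.5, 57.3 and 0% against 100, 98.3 and 92.6%. Every SSCT F0 mouse lay below every control at both, with 34 to 188 reads per mouse and an exact permutation p of 0.1, the smallest possible. Over all features, the groups did not overlap in 21.6% of the 4792 called CpGs and in 28.4% of the 1962 called windows. Gfra1 held 3 of the member CpGs tested and 2 of the windows, Kit 3 CpGs and Zbtb16 2, and Nanos2 and Nanos3 had 0.

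The other groups had high levels at these Gfra1 CpGs. The offspring groups had 92.8 to 98.4% at the first and 85.5 to 94.6% at the second. The next CpGs read, at 58413431, 58413458 and 58413463 on the minus strand, had 100% in SSCT F0 replicate 1, 0% in replicate 2 and too few reads in replicate 3, and 81.5 to 100% in control F0. Neighbouring CpGs of the same mouse thus differed between the strands. Replicate 1 had 29.4 and 23.5% on the plus strand and 100% on the minus strand. Replicate 2 lay below every control on both strands, with 80.1 and 57.3% on the plus strand and 0% on the minus strand.

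Without SSCT F0 replicate 3, the library with the fewest positions, 466 member CpGs could be tested and 23 were called (4.94%, background 5.83%), 9 higher and 14 lower. Gfra1 held 10 of them, 9 lower, Zbtb16 4, Kit 3, Etv5 and Bcl6b 2 each, and Ret and Id4 1 each, while Kitl had 0 of 58. In 17 of the 23, replicate 2 alone had moved by more than 25 percentage points from the control mean, in 2 replicate 1 alone, in 3 both and in 1 neither. In 6 of the 23 the groups did not overlap, as in 15705 of the 34955 called over all CpGs.

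Their values show this split between the transplanted mice. In Kit, chr5:75575582 near the start had 0% in SSCT F0 replicate 1, 96.4% in replicate 2 and 0% in all 3 controls, and chr5:75628092 in the body had 88.4%, 0% and 93.8 to 100%. In Zbtb16 the neighbouring CpGs chr9:48796078 and chr9:48796084 had 100% and 0% in replicate 1 and in every control, and 0% and 100% in replicate 2. In Id4, chr13:48261448 had 0% in replicate 1 and in the controls and 100% in replicate 2. Replicate 2 thus lay at the other end of the scale from the controls at these single positions, in both directions. The part of the low input in these calls was not tested.

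Markers of other cells had low medians in every library. Starts of maternally methylated imprinted genes, unmethylated in sperm and partly methylated in somatic cells, had library medians of 0.227 to 2.30% over 8 or 9 of 11 listed genes. Those of 10 germline genes, methylated in somatic cells, had medians of 1.00 to 3.34%. In SSCT F0 replicates 1, 2 and 3 the medians were 1.57, 2.19 and 0.00707% for the imprinted genes and 4.09, 1.20 and 0% for the germline genes, with 6 of 11 and 7 of 10 genes measured in replicate 3. The control F0 medians were 0.877 to 1.91% and 1.77 to 3.99%. The highest single gene of either list had 15.4 to 33.3% in the SSCT F0 libraries and up to 16.7% in the offspring. Of the 2 listed paternally methylated loci, whose starts had been listed as methylated in sperm, only the start of Rasgrf1 was read. It had 0 to 5.26% in every library with a value, so that the check for methylated starts was not met. Only positions within 500 bp of the annotated start were used, so methylation of these loci further from it was not part of the check. The reason for the low level at this start was not tested.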

How the data were processed

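Sperm of 26 mice was analysed from 1 position list per library. Per the labels, libraries were made with a Diagenode Premium RRBS kit and sequenced as single reads, and the processing notes name Trim Galore 0.4.1, Bismark 0.20.0, FastQC and methylKit 1.7.0 with build GRCm38. For each cytosine position and strand the authors deposited the fraction of methylated reads. The authors also deposited the coverage as a count of reads. The fraction times the count gave whole methylated reads at all but 29 positions. Every listed position inside the promoter windows (249188) lay on a CpG of GRCm38.

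Positions needed at least 10 reads, and in the CpG and window tests a coverage outside the highest 1 in 1000 of each library. Gene spans were GRCm38.p6 RefSeq spans with 2000 bp on either side, and genes entered limma with at least 5 shared positions. Group was the only term. CpGs and windows of 1000 bp were tested by logistic regression (two-sided chi-square likelihood-ratio test, q under 0.01, difference above 25 percentage points), gene means by limma 3.58.1 with a trended prior in R 4.3.3 (adjusted p under 0.05), both with Benjamini-Hochberg adjustment over all features, and single values by two-sided exact permutation tests (Python 3.11.15, scipy 1.17.1), whose smallest p is 0.1 for 3 against 3 and 0.00794 for 5 against 5. The scripts were tested on simulated data. The members, the 38 pathway genes and the marker lists were chosen with earlier results of these data known. All 10 members are named, with every called CpG and window (in the comparison without SSCT F0 replicate 3, examples chosen after their values were seen and counts of the rest). Gfra1, Id4, Bcl6b, Zbtb16 and Nanos3 overlap other annotated genes. No libraries were duplicates (Pearson r of at most 0.971 between any pair of offspring and 0.879 between F0 libraries). Same-numbered libraries of different groups did not deviate together (mean r of 0.00207 over 30 offspring pairs and 0.0119 over 3 F0 pairs), so replicate numbers were not used to pair. Alternatives were other read minimums, merged strands, shifted windows, a difference above 10 points, an F test that uses the differences between mice of a group, other gene means and leaving out each library.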

Additional observations from a re-analysis of the deposited data

Results flagged for a closer look

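In 3 of 40 gene and group combinations tested, and in 2 of 17 groups at called positions, 1 mouse lay far from the other 4 of its group by Dixon's criterion. Chance meets it in about 1 group of 20 where values vary continuously. In the 2 groups at called positions the other 4 mice had the same value, so any different value met the criterion and that rate does not apply. Nanos3 had 82.7% in SSCT F2/P replicate 4 and 94.4 to 98.1% in the other 4 mice, over each library's own positions. Kit had 57.9% in SSCT F2/P replicate 2 and 60.1 to 60.9% in the others, over shared positions. Kitl had 10.1% in SSCT F2/M replicate 2 and 8.49 to 8.92% in the others. At the Gfra1 CpG chr19:58413326, 1 SSCT F2/P mouse had 90.1% and the other 4 had 100%. At the Nanos2 CpG chr7:18989841, 1 control F1 mouse had 44.4% and the other 4 had 0%.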

How the results depend on the processing

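Counts of called CpGs were small and moved with the settings, and the share called over all CpGs or windows moved with them. With an F test that uses the differences between mice of a group, 0 member CpGs and windows were called in any comparison, as was no CpG or window of the whole table, so this says nothing about the members (908 CpGs in F0 and 1367 to 1547 in each offspring pair had the difference and an unadjusted p under 0.05, with 0 or 1 of them in the members). In F0 that test also recovered no change on simulated data with 3 mice a group. With a difference above 10 percentage points, 9 CpGs (background 12.1%) and 3 windows (20.3%) were called in F0, 16 CpGs in SSCT F1, 15 CpGs and 3 windows in SSCT F2/M, and 16 CpGs and 3 windows in SSCT F2/P, all against the controls, with backgrounds of 5.01 to 5.32% of CpGs and 4.98 to 5.26% of windows in the 6 offspring pairs. With at least 5 reads (0.594 to 0.663% of CpGs, 0.541 to 0.623% of windows), SSCT F1 had 4 CpGs and 0 windows and SSCT F2/P 3 CpGs. With at least 20 reads (0.203 to 0.246% and 0.165 to 0.222%), 0 CpGs were called in each offspring comparison with control F1, and 0 windows in SSCT F1. With strands merged (0.352 to 0.397% and 0.355 to 0.401%), F0 had 2 windows (9.68%), SSCT F1 0 windows and SSCT F2/M 0 CpGs. Leaving out 1 library at a time gave 2 to 23 CpGs (5.83 to 6.98%) and 1 to 4 windows (10 to 13.5%) in F0, 1 to 2 CpGs and 0 to 1 window in SSCT F1, 0 to 3 CpGs in SSCT F2/M, and 0 to 3 CpGs and 0 to 1 window in SSCT F2/P, with backgrounds of 0.526 to 0.644% of CpGs and 0.474 to 0.586% of windows in the offspring. The 23 came without SSCT F0 replicate 3, where more positions were shared, and 4 came without SSCT F0 replicate 2 or control F0 replicate 3. The causes of the other changes were not tested.

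The same alternatives for the 3 pairs without control F1 were chosen after seeing the data. A difference above 10 points gave 8 CpGs and 2 windows for SSCT F1 against SSCT F2/M, 15 and 3 for SSCT F1 against SSCT F2/P, and 12 and 4 for SSCT F2/M against SSCT F2/P. At least 5 reads gave 2, 4 and 3 CpGs and 0 windows, at least 20 reads 0 CpGs and 0 windows, and merged strands 0 windows. Leaving out 1 library gave 0 to 2, 1 to 2 and 0 to 3 CpGs, and 0 to 1 window in the first pair and the second.

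No member passed limma under any setting, and none did with the replicate block (0 members in each of the 6 offspring pairs and in F0, with 267 genes at an unadjusted p under 0.05 in F0 beside 511 without it). Of 135 alternative values of the member differences in each comparison with control F1, 14 moved by more than the spread between mice in SSCT F1, 14 in SSCT F2/M, with 13 in SSCT F2/P, and 22, 21 and 24 changed sign, none of them called. In the other 3 pairs 10 to 15 of 135 moved and 17 to 35 changed sign. In F0, 6 of 64 moved and 13 changed sign. Gfra1 entered the F0 fit only under some settings, with a difference of -18.4 percentage points without SSCT F0 replicate 2 (unadjusted p = 0.00254, adjusted p = 0.691, limma). Without SSCT F0 replicate 3, 8 members could be tested and 3 had an unadjusted limma p under 0.05, as had 2011 of all 20036 genes. In that fit 5 genes passed, with 0 members among them.

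Few positions could be compared in F0: 60 member positions were shared by all 6 F0 libraries, and 390 by the 20 offspring, while the median reads at a position were 26 to 392 in the SSCT F0 libraries and 23 to 38 in the others. Nanos2 and Nanos3 had no shared position in either set.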
